A study of Mus musculus with 198 samples.

Results

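The oligodendrocyte lineage genes examined here are a list of 37 genes that mark the lineage from precursor to myelinating cell, and their DNA methylation was read in the cerebral cortex of DNMT3A heterozygous knockout (hKO) and wild-type (WT) mice. Membership was set by gene name, and a gene entered when the deposited gene table held a value in all 8 deeply sequenced cortex libraries. Of the 37 genes, 36 had a value for methylation at CA dinucleotides (mCA), out of 21302 genes with mCA in all 8 libraries, and 35 had one for methylation at CG dinucleotides (mCG), out of 21060. Olig1 had neither value and Omg had no mCG value. The 4 hKO animals were labelled heterozygous knockouts, in a series on DNMT3A, and the 4 WT animals were wild type. Tissue came from littermates, per the labels. All 8 were C57BL/6J mice aged 8 weeks, with 2 males (animals 1 and 2) and 2 females (animals 3 and 4) per genotype. The labels do not describe the knockout allele, and the cortex was sequenced as bulk tissue, so a change in cell makeup and a change in methylation per cell cannot be told apart. Each library was whole-genome bisulfite sequencing at a labelled coverage of 6.4 to 7.8 times the genome, and each animal is 1 library.

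Oligodendrocytes wrap axons in myelin. They arise from precursor cells, which divide in response to platelet-derived growth factor and express transcription factors of the Olig family, then pass through a newly formed stage and finally make the proteins and galactolipids of the myelin sheath. DNMT3A is the enzyme that places methyl groups on CA sites in the postnatal brain. mCA is known to build up in neurons over the first weeks of life, and glia hold far less of it.

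mCA over the oligodendrocyte lineage genes was lower in hKO cortex. Of the 36 genes with a value, 33 fell and none rose in limma's test over all genes with Benjamini-Hochberg adjustment at 0.05, against a background of 72.1% of all genes called lower. The falls ran from 0.494 to 2.12 percentage points, and the 33 genes kept 45.7% to 61.0% of their WT level, 30 of them between 50% and 60%. With each library's median over all genes subtracted first, 23 members were lower and 2, Cnp and Gjc3, were higher, where 5283 genes in all were lower and 6523 higher. This subtraction takes the same amount from every gene of a library. Falls were larger in genes with more WT mCA, so these counts do not show a loss out of proportion. In the same 33 genes that fell without subtraction, all 4 hKO values lay below all 4 WT values, a separation seen in 64.6% of all genes. Over the 36 genes the median level was 1.74% in hKO and 3.26% in WT. The median member kept 55.2% of its WT level. Over all genes the corresponding medians were 1.15% in hKO and 2.07% in WT, with 56.6% kept. In WT cortex 30 of the 36 genes stood above the median gene in mCA and 21 stood above the 75th percentile.

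**Figure D1:**
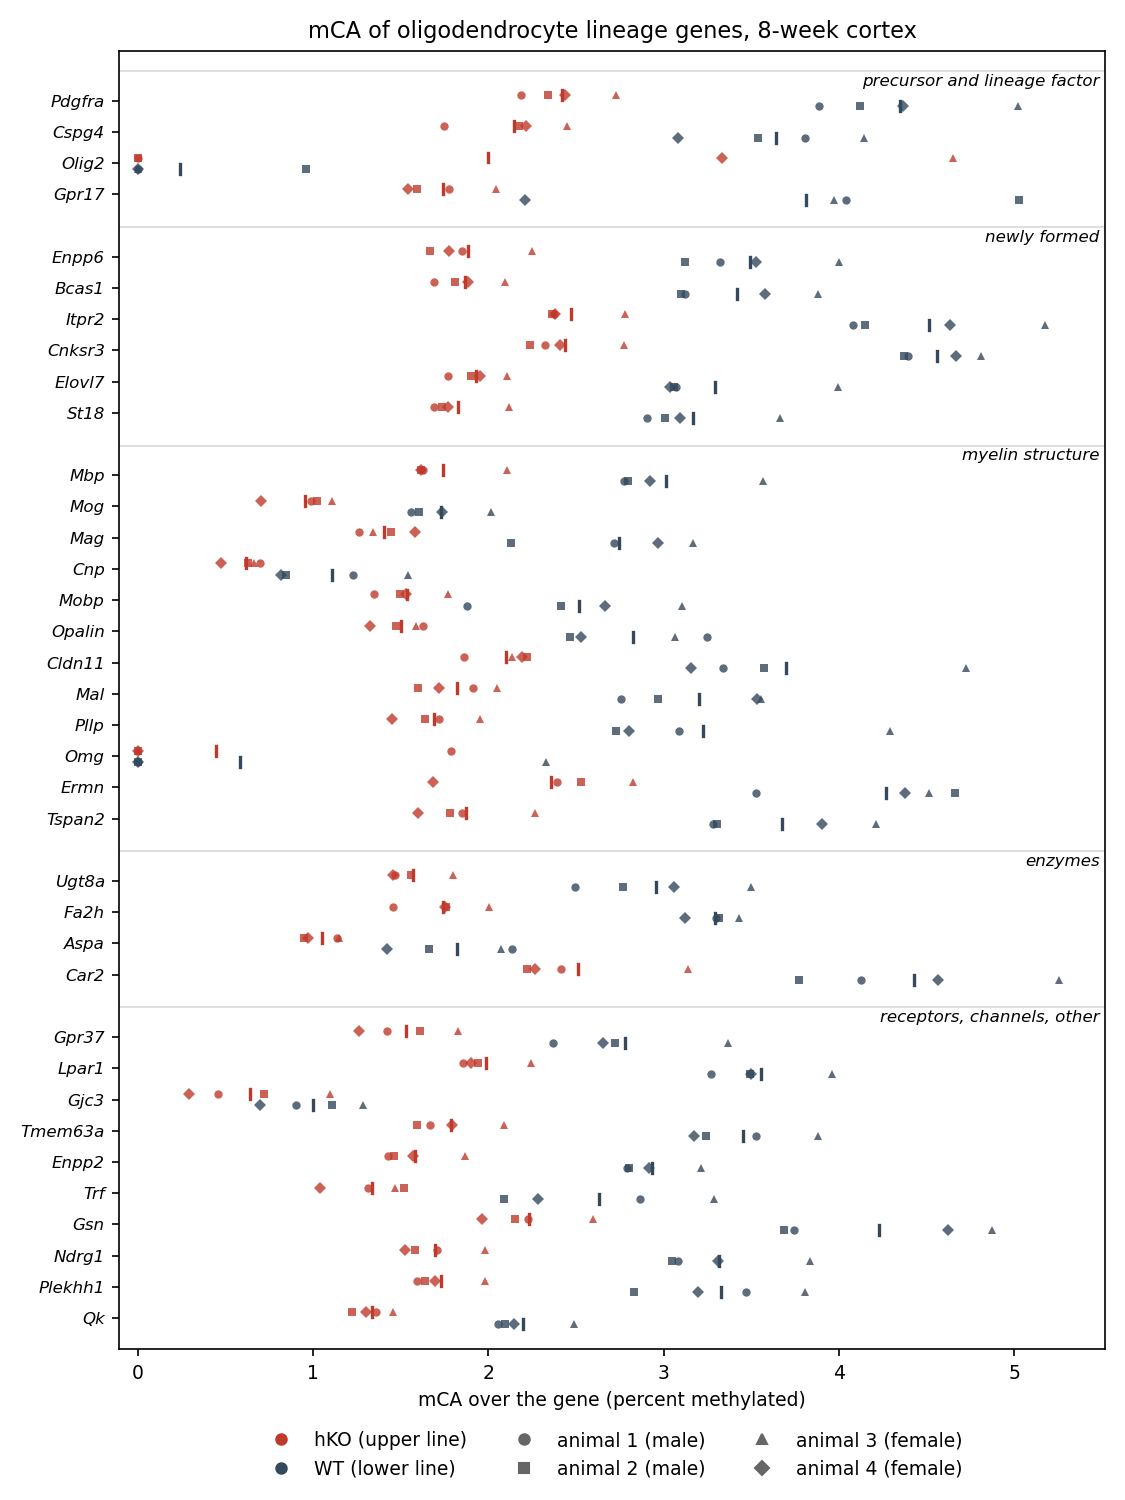
mCA of the 36 lineage genes in each animal, in percent methylated over the gene, grouped by role. Red symbols on the upper line of each gene are the 4 hKO animals and dark symbols on the lower line the 4 WT animals, vertical bars are group means and symbol shapes are animals 1 to 4. In 33 genes every hKO point lies left of every WT point, and Olig2, Omg and Gjc3 overlap.

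Of the 4 precursor and lineage factor genes with a value, Pdgfra, Cspg4 and Gpr17 fell and Olig2 did not pass the test. Pdgfra encodes the receptor through which platelet-derived growth factor drives precursor division. Its mCA was 2.18%, 2.34%, 2.73% and 2.44% in hKO animals 1 to 4, against 3.89%, 4.12%, 5.02% and 4.36% in WT animals 1 to 4. The groups did not overlap, and the difference was -1.93 percentage points (SE 0.29, limma adjusted p = 0.000693). Cspg4, the NG2 proteoglycan of the precursor surface, held 1.75%, 2.17%, 2.45% and 2.21% in hKO and 3.81%, 3.54%, 4.14% and 3.08% in WT. Every hKO animal was again below every WT animal, with a difference of -1.5 points (SE 0.27, limma adjusted p = 0.0012). Gpr17 encodes a receptor found for a short time in cells leaving the precursor stage. It held 1.78%, 1.59%, 2.04% and 1.54% in hKO, against 4.04%, 5.02%, 3.97% and 2.21% in WT. Its hKO level was 45.7% of WT, the lowest share among the 33 genes, and its WT animals spread widely, from 2.21% in animal 4 to 5.02% in animal 2 (difference -2.07 points, SE 0.50, limma adjusted p = 0.00499). By RefSeq's annotation Gpr17 lies inside Lims2, whose own row held 1.94% in hKO and 3.46% in WT. Sites within Gpr17 therefore also lie within Lims2, and the Gpr17 values cannot be assigned to Gpr17 alone.

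Olig2, the transcription factor that specifies the lineage, went against the other members without passing the test. Its mCA was listed at 0 in hKO animals 1 and 2 and at 4.65% and 3.33% in hKO animals 3 and 4, against 0, 0.962%, 0 and 0 in WT animals 1 to 4. The groups overlapped, since 5 of the 8 values were 0. The difference of 1.76 points (SE 0.97) had a limma adjusted p of 0.126, and it came from the females: within females it was 3.99 points and within males -0.481 points. Without hKO animal 1 or without hKO animal 2 the adjusted p was 0.0425 or 0.0458, and without hKO animal 3 it was 0.315. The number of CA sites and reads behind this row is not given, and its WT mCA stood at the 0.728th percentile of all genes.

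The sequences around 4 gene starts are shown because these windows differ in their number of CG sites, and they take in Olig2, the member with the least CG methylation. They are RefSeq promoter windows on GRCm38.p6, from 250 bases before to 50 bases after each start, 5′ to 3′ on the strand of the gene, with every CG in capitals. Olig2 lies at chr16:91225300-91225599 on the plus strand, Pdgfra at chr5:75152001-75152300 on the plus strand, Mog at chr17:37023349-37023648 on the minus strand and Opalin at chr19:41077064-41077363 on the minus strand.
Olig2: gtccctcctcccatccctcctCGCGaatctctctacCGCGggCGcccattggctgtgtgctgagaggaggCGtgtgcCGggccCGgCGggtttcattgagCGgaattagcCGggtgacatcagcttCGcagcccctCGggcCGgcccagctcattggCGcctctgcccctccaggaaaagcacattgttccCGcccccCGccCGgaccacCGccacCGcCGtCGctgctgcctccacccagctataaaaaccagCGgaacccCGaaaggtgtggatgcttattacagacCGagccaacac
Pdgfra: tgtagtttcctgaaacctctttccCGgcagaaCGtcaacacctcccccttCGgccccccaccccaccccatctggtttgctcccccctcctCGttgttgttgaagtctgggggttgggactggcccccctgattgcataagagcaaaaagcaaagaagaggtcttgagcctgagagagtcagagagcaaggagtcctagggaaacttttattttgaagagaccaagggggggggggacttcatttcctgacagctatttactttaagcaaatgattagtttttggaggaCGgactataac
Mog: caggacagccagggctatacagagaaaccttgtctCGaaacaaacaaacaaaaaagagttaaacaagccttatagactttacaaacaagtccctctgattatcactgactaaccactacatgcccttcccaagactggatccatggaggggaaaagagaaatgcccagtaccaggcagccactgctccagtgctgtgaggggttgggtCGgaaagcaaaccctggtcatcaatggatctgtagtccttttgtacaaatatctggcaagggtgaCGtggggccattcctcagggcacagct
Opalin: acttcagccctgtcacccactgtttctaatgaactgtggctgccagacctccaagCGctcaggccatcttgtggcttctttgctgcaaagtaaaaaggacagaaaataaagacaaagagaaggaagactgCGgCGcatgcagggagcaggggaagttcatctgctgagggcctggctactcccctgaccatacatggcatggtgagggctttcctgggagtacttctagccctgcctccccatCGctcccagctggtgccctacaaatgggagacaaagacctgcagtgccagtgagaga
The Olig2 window holds 25 CG dinucleotides, the Pdgfra window 5, the Opalin window 4 and the Mog window 3. CG reads the same on both strands. Among 27025 RefSeq promoters of 300 bases the median was 7 and 94.2% held at least 1 CG. Promoters were matched for 26 of the 37 genes, with a median of 17 CG, and 16 of the 26 held 10 or more, as did 43.9% of all promoters. The most CG-dense was Qk with 57, followed by Ugt8a with 40, and Aspa had the fewest, 2. The deposited gene values do not report these windows on their own, and the files use the older mm9 build.

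All 6 genes of newly formed oligodendrocytes fell, and they held some of the highest mCA of the list. Cnksr3, a signalling scaffold, had the largest fall of any member. It averaged 2.43% ± 0.24 in hKO and 4.56% ± 0.21 in WT (SD, n = 4 each), a difference of -2.12 points (SE 0.24, limma adjusted p = 0.000692). Its WT level stood at the 96.0th percentile of all genes. Itpr2, an inositol trisphosphate receptor of the endoplasmic reticulum, averaged 2.47% ± 0.20 in hKO and 4.51% ± 0.51 in WT. Enpp6, a choline phosphodiesterase, averaged 1.89% ± 0.25 in hKO and 3.49% ± 0.38 in WT. Bcas1, a protein of cells that begin to myelinate, averaged 1.87% ± 0.17 in hKO and 3.42% ± 0.38 in WT. These averages left no overlap between the genotypes in any of the genes. Elovl7, a fatty acid elongase, and St18, a zinc finger transcription factor, kept the most in this group, at 58.7% and 57.7% of WT.

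Of the 12 structural myelin and adhesion genes, 11 fell. Mbp encodes myelin basic protein, which compacts the sheath. Its mCA was 1.62%, 1.62%, 2.10% and 1.61% in hKO and 2.77%, 2.79%, 3.57% and 2.92% in WT. In each genotype animal 3 stood above the other three, and the difference was -1.27 points (SE 0.23, limma adjusted p = 0.0012). Mog, a glycoprotein of the outer face of myelin, held 0.989%, 1.02%, 1.11% and 0.701% in hKO and 1.56%, 1.6%, 2.01% and 1.74% in WT. Mag, an adhesion molecule at the axon-facing membrane, held 1.26%, 1.45%, 1.34% and 1.58% in hKO and 2.71%, 2.13%, 3.17% and 2.97% in WT. Mog kept 55.3% and Mag 51.3% of WT, with adjusted p-values of 0.00208 and 0.00101 in limma.

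Cnp, the cyclic nucleotide phosphodiesterase of noncompact myelin, was among the least methylated members. It held 0.696%, 0.626%, 0.664% and 0.472% in hKO, against 1.23%, 0.848%, 1.54% and 0.816% in WT. The groups separated by a narrow margin and the fall of 0.494 points (SE 0.17, limma adjusted p = 0.028) was the weakest of the 33: leaving out hKO animal 2, hKO animal 4 or WT animal 1 gave adjusted p-values of 0.0586, 0.0737 and 0.0652. By RefSeq's annotation Cnp partly overlaps Dnajc7, whose row held 0.719% in hKO and 1.095% in WT. Mobp, a protein of compact myelin, held 1.35%, 1.5%, 1.77% and 1.53% in hKO and 1.88%, 2.42%, 3.11% and 2.67% in WT. It kept 61.0% of its WT level, the most among the genes that fell (limma adjusted p = 0.00706). Opalin, a glycoprotein of central nervous system myelin, held 1.63%, 1.47%, 1.59% and 1.33% in hKO and 3.25%, 2.47%, 3.07% and 2.53% in WT. Its fall of 1.32 points (SE 0.22, limma adjusted p = 0.000814) left 53.2% of the WT level.

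The remaining structural genes that fell were Ermn, Cldn11, Tspan2, Pllp and Mal. Ermn, a cytoskeletal protein of the sheath, had the highest level among the structural genes, 2.36% ± 0.48 in hKO and 4.27% ± 0.51 in WT. Cldn11, which forms the tight junctions between myelin layers, averaged 2.10% ± 0.17 in hKO and 3.70% ± 0.71 in WT. Tspan2, a tetraspanin, kept 51.0% of WT, Pllp, the proteolipid plasmolipin, 52.4% and Mal, a lipid raft proteolipid, 56.8%. Omg, a glycoprotein that restrains neurite growth, was listed at 0 in 6 of the 8 animals. Its mCA was listed at 1.79%, 0, 0 and 0 in hKO and at 0, 0, 2.33% and 0 in WT, which gave a limma adjusted p of 0.842. Omg lies inside Nf1, whose row held 0.835% in hKO and 1.55% in WT.

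All 4 enzyme genes fell. Ugt8a makes galactosylceramide, the main glycolipid of myelin. It held 1.47%, 1.56%, 1.80% and 1.46% in hKO and 2.49%, 2.77%, 3.50% and 3.06% in WT, a difference of -1.38 points (SE 0.23, limma adjusted p = 0.000887). Fa2h, which hydroxylates the fatty acids of those lipids, held 1.46%, 1.76%, 2.00% and 1.75% in hKO and 3.30%, 3.31%, 3.43% and 3.12% in WT. Its WT animals were the most alike among the 34 members other than Olig2 and Omg, with a coefficient of variation of 3.92%, and the fall was 1.55 points (SE 0.19, limma adjusted p = 0.000692). Car2, a carbonic anhydrase, averaged 2.51% ± 0.43 in hKO and 4.43% ± 0.64 in WT. Aspa, which splits N-acetylaspartate into acetate for lipid synthesis, averaged 1.05% ± 0.11 in hKO and 1.82% ± 0.34 in WT. By RefSeq's annotation it partly overlaps Spata22, whose row held 0.712% in hKO and 1.44% in WT.

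Among the 10 receptors, channels, secreted and other proteins, 9 fell. Lpar1, a receptor for lysophosphatidic acid, averaged 1.99% ± 0.17 in hKO and 3.55% ± 0.29 in WT, and Enpp2, the secreted enzyme autotaxin that makes this lipid, averaged 1.58% ± 0.20 in hKO and 2.93% ± 0.20 in WT. Gsn, the actin-severing protein gelsolin, had the largest fall here, 2.00 points (SE 0.32, limma adjusted p = 0.000792). Trf, the iron carrier transferrin, kept 50.8% of WT, Ndrg1 51.2%, Tmem63a, a mechanically gated channel, 51.7%, Plekhh1 52.0% and the receptor Gpr37 55.1%. By RefSeq's annotation Plekhh1 partly overlaps Pigh, whose row held 1.12% in hKO and 1.75% in WT. Qk, the RNA-binding protein quaking, which controls splicing of myelin transcripts, averaged 1.33% ± 0.099 in hKO and 2.19% ± 0.20 in WT and kept 60.7%. Gjc3, a connexin of glial gap junctions, did not pass. It held 0.457%, 0.722%, 1.10% and 0.290% in hKO, against 0.905%, 1.11%, 1.28% and 0.697% in WT. The groups overlapped, with hKO animal 3 above WT animals 1 and 4 and hKO animal 2 above WT animal 4, and the difference was -0.357 points (SE 0.20, limma adjusted p = 0.129). Without hKO animal 3 it was -0.508 points with an adjusted p of 0.0316. With the replicate number as a block the limma adjusted p was 0.00987.

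**Figure D2:**
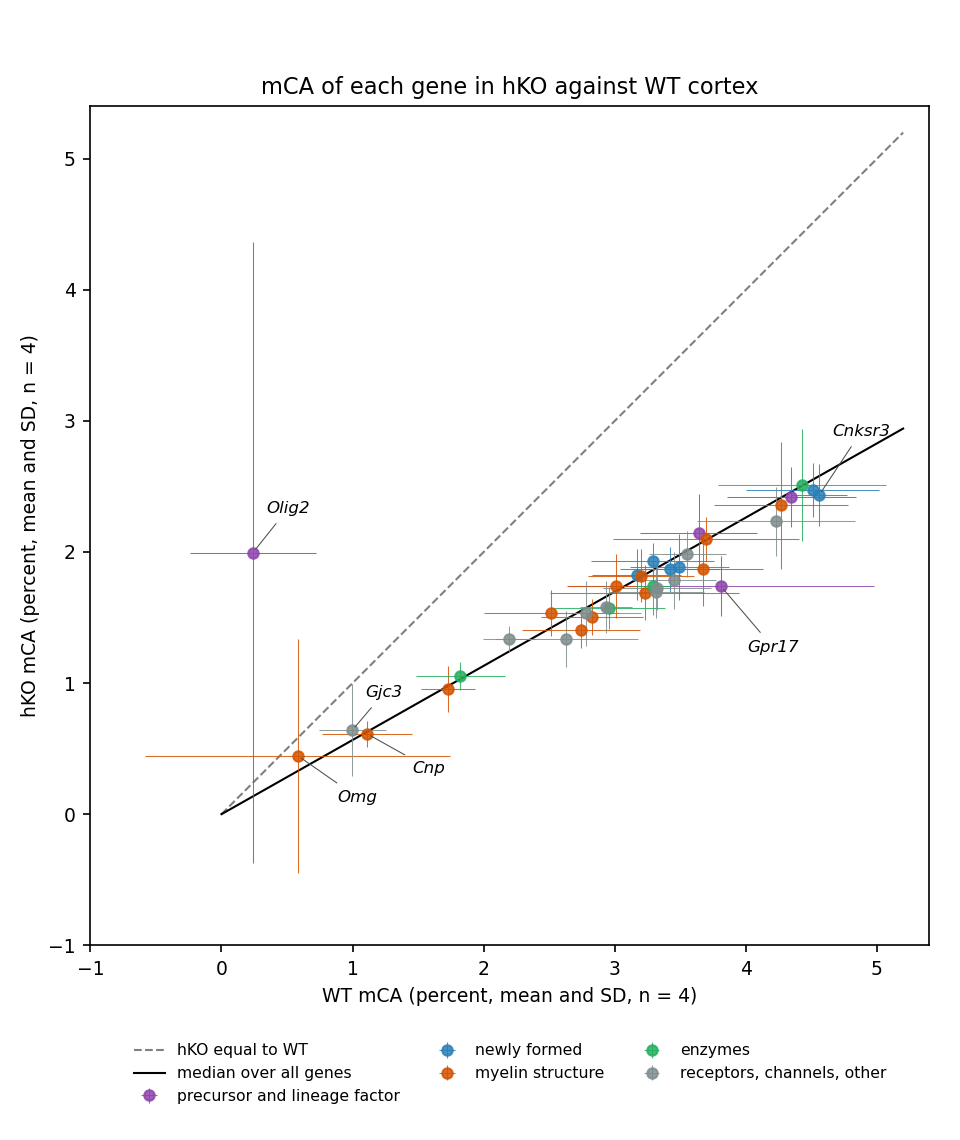
Mean mCA of each lineage gene in hKO cortex (vertical axis) against WT cortex (horizontal axis), in percent, with SD over 4 animals per genotype, coloured by role. The dashed line is equality and the solid line is the median over all genes, 56.6% of WT. The genes that fell lie near the solid line, and Olig2, with 2.00% in hKO and 0.240% in WT, is the one point above equality.

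The size of a gene's fall went with its starting level. Over the 34 members without Olig2 and Omg, WT mCA and the hKO minus WT difference had a Pearson r of -0.973 (Spearman rho -0.956), and over all genes r was -0.932. hKO and WT levels had an r of 0.977 over the same 34 genes and 0.942 over all genes. These are descriptions across genes that share libraries, and WT levels enter both measures of the first pair. WT mCA had little relation to WT mCG among the 34 members (r = 0.0656) and a weak one to the density of CG sites (r = 0.294). From the authors' pooled columns, the members had a median of 0.157 CA sites and 0.0224 CG sites per base, against 0.153 and 0.0204 over all genes. The median coefficient of variation in mCA between animals of 1 genotype was 11.9% in hKO and 12.5% in WT over these 34 members, against 18.3% and 18.5% over all genes. The sets are unlike, since the members leave out Olig2 and Omg and mostly stood above the median gene in mCA. Animal 3 held the highest mCA in 29 of the 34 genes in hKO and in 30 of 34 in WT, and it also had the highest mean over all genes in its genotype, 1.44% in hKO and 2.60% in WT. Without hKO animal 3 there were 34 falls, and without WT animal 3 there were 33.

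The precursor genes other than Olig2 held more mCA on average than the myelin genes other than Omg, and the 2 groups kept 53.5% and 54.8% of their WT means. Single genes of the groups overlapped in level. In WT these precursor genes ran from 3.64% to 4.35% and these myelin genes from 1.11% to 4.27%. The comparison took the structural myelin genes together with Ugt8a, Fa2h and Aspa as the myelin genes. Over Pdgfra, Cspg4 and Gpr17, mean mCA was 1.90%, 2.04%, 2.41% and 2.06% in hKO, against 3.91%, 4.23%, 4.38% and 3.22% in WT. Over the 14 myelin genes other than Omg it was 1.52%, 1.55%, 1.77% and 1.43% in hKO, against 2.67%, 2.66%, 3.34% and 2.79% in WT. The precursor mean was above the myelin mean in all 8 animals, and within each group every hKO animal was below every WT animal. As a percentage of the myelin mean, the precursor mean was 125%, 131%, 136% and 144% in hKO and 147%, 159%, 131% and 116% in WT. The genotypes overlapped on this measure, since WT animal 4 was the lowest and WT animal 2 the highest. With Olig2 and Omg counted in their groups, the precursor mean was 2.08% ± 0.73 in hKO and 3.01% ± 0.45 in WT (SD, n = 4 each), and the genotypes overlapped. It was then lower than the myelin mean in hKO animal 1 and WT animal 4, so the order of the precursor and myelin means held in all 8 animals only without Olig2 and Omg. No test was made over these lists, which were chosen with earlier results known.

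**Figure D3:**
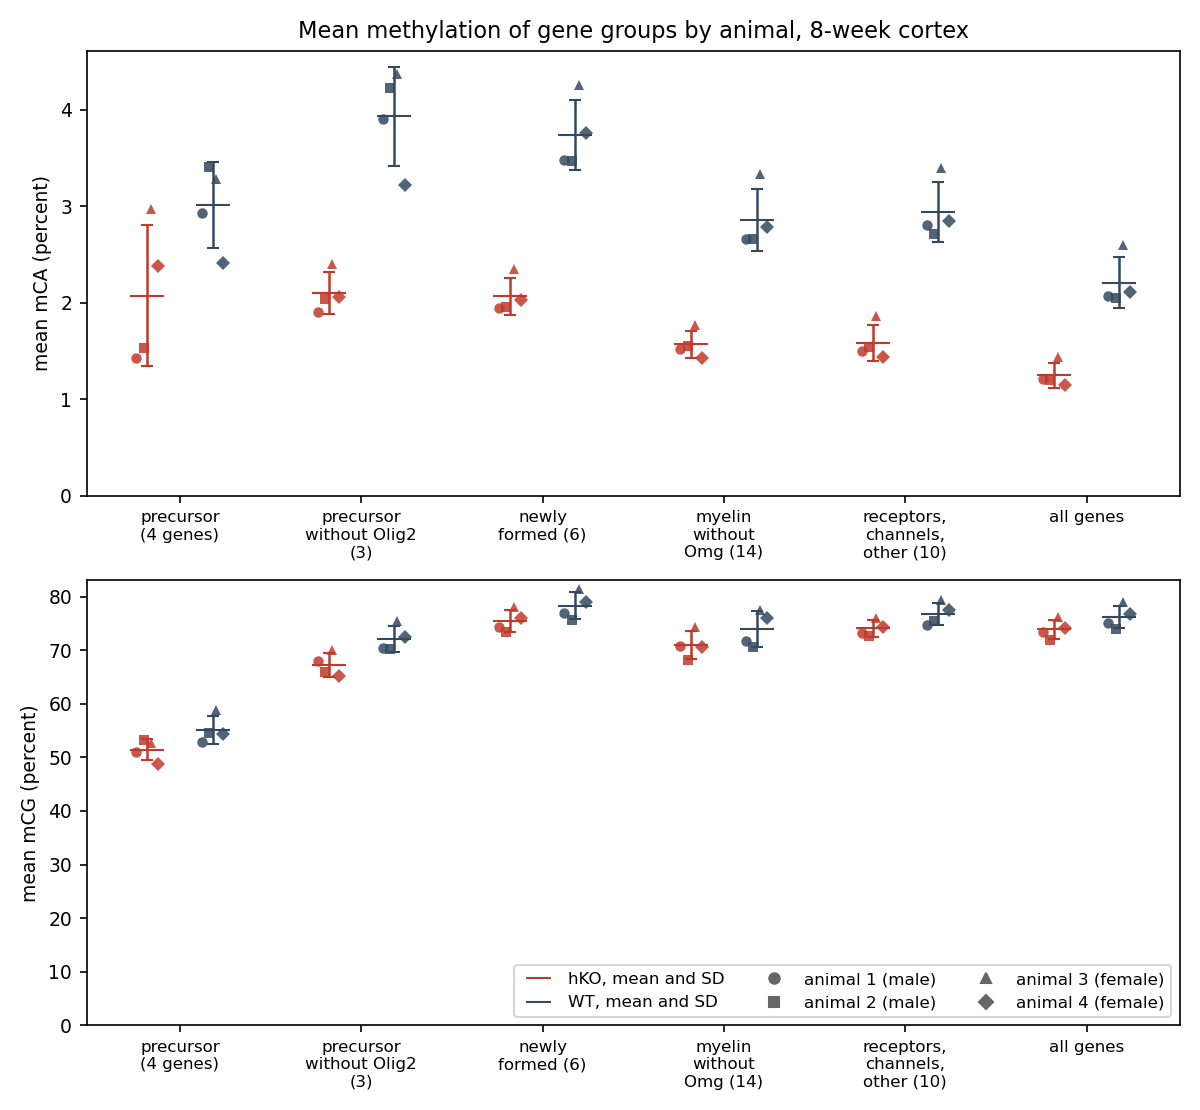
Mean mCA (upper panel) and mCG (lower panel) over gene groups in each animal, in percent, with hKO left of WT in each pair and symbol shapes for animals 1 to 4. Long bars and whiskers are the mean and SD over 4 animals. The precursor genes without Olig2 average 2.10% in hKO and 3.93% in WT in mCA, the myelin genes without Omg 1.57% in hKO and 2.86% in WT, and the mCG groups overlap except for the 3 precursor genes.

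Because most genes lost mCA in hKO cortex, each gene was also expressed as a percentage of its library's mean over all genes. On this relative scale no lineage gene differed, and the background was 0% of all genes at a limma adjusted p of 0.05. The smallest adjusted p among the members was 0.774. At an unadjusted p under 0.05, 1 member was lower, where 3.38% of all genes were, and none was higher, where 2.93% of all genes were. That member was Ndrg1, which stood at 136% of the library mean in hKO and 150.1% in WT (difference -14.6 points, limma unadjusted p = 0.0137). Tspan2 stood at 149% in hKO and 166% in WT (limma unadjusted p = 0.0577). Ndrg1 and Tspan2 were the 2 members whose genotypes did not overlap on this scale, both lower in hKO. Of the 21302 genes tested, 490 were separated in this way as lower and 320 as higher. Gpr17 had the largest relative difference among members without 0 values, 139% in hKO and 174% in WT, with an unadjusted p of 0.226 in limma. Of the 36 members 24 had a lower relative level in hKO, as did 10699 of the 21302 genes tested. The mean over the 34 members without Olig2 and Omg was 136%, 140.4%, 138% and 140.4% of the library mean in hKO, against 145%, 146%, 141% and 145% in WT, and the highest hKO value lay just below the lowest WT value. Leaving out these genes was chosen after seeing the data. Both were higher in hKO on this scale, Olig2 at 153% in hKO and 11.7% in WT and Omg at 36.8% and 22.3%. The relative mean with them was not computed, so the separation holds only for the 34 members.

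**Figure D4:**
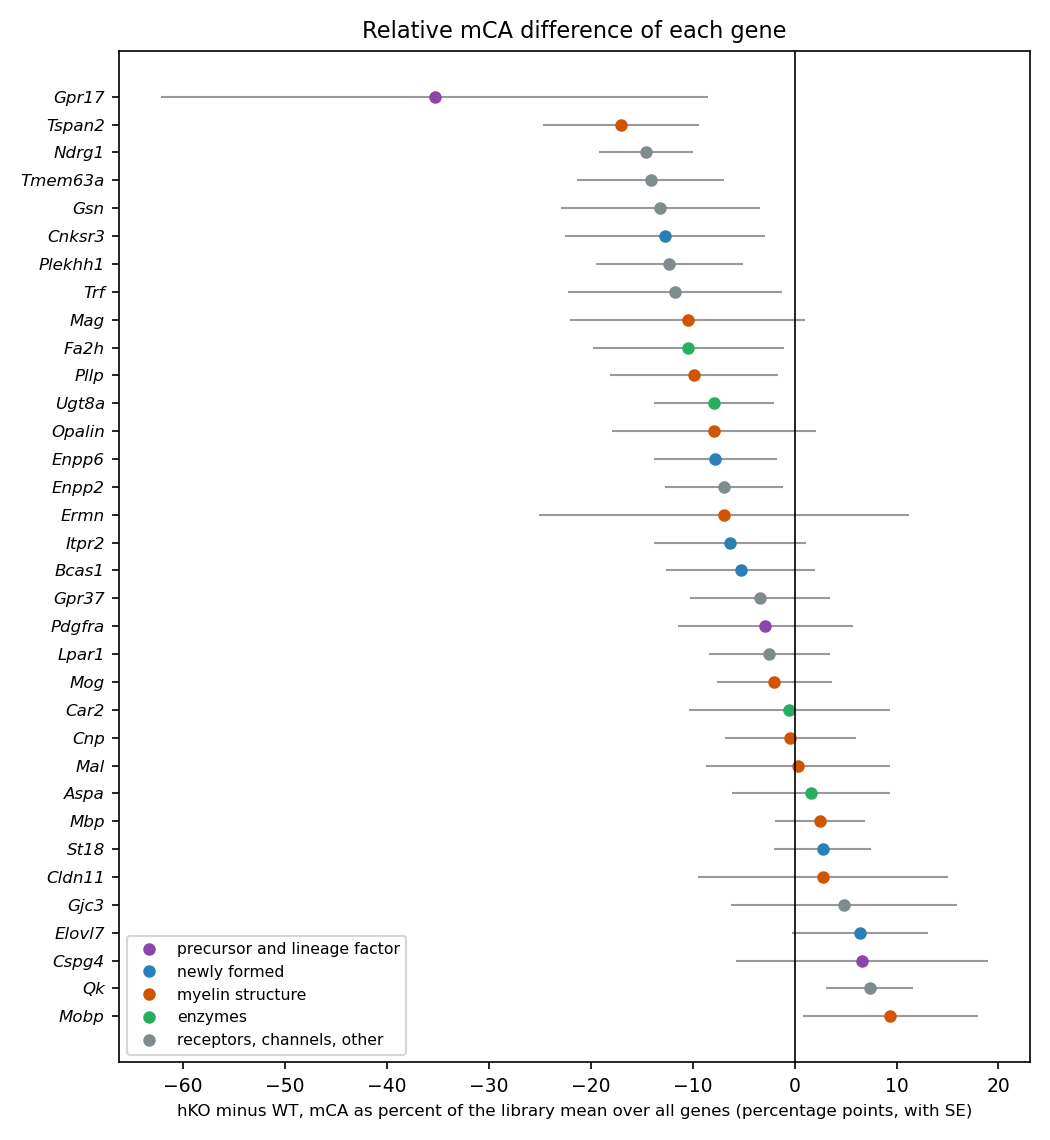
Difference between hKO and WT in relative mCA for the 34 lineage genes other than Olig2 and Omg, in percentage points of the library mean, with the SE of the limma fit. Genes run from the most negative at the top, and colours mark the roles. Ndrg1, at -14.6 points, is the member with the smallest p, and no gene passed after adjustment.

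In mCG the median member kept 96.2% of its WT level, where it kept 55.2% in mCA. Of the 35 genes with a value none passed limma's test at an adjusted p of 0.05, as for 0% of all genes, and the smallest adjusted p was 0.476. The group mean was lower in hKO for 34 of the 35, as it was for 84.0% of all genes, and the median difference was -2.73 points, against -2.18 points over all genes. No member had all 4 hKO values below all 4 WT values, a separation seen in 4.94% of all genes. At an unadjusted p under 0.05, 5 members were lower, where 10.1% of all genes were. These were Gpr17, Trf, Mbp, Cnksr3 and Bcas1. Gpr17 held 67.5%, 65.3%, 72.5% and 60.2% in hKO, against 74.3%, 73.7%, 76.6% and 71.4% in WT. hKO animal 3 stood within the WT range, and the difference of -7.62 points (SE 2.70, unadjusted p = 0.0178, adjusted p = 0.476 in limma) was the largest among the members. Mbp held 64.6%, 62.0%, 66.4% and 62.5% in hKO and 68.2%, 66.2%, 72.1% and 69.6% in WT. Its groups met at hKO animal 3 and WT animal 2, with a difference of -5.14 points (SE 2.21, unadjusted p = 0.0415 in limma).

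The levels of mCG set Olig2 and Qk apart from the other members. Olig2 was listed at 0, 15.4%, 0 and 0 in hKO and at 0, 7.69%, 9.09% and 0 in WT, below all but a small part of the genes tested (percentile 0.290). Qk followed with 53.1% ± 1.8 in hKO and 56.8% ± 2.2 in WT (SD, n = 4 each), and Mag with 60.0% ± 6.5 in hKO and 63.9% ± 4.9 in WT. Plekhh1 was the highest, with 80.3% ± 2.2 in hKO and 83.0% ± 2.1 in WT. Mobp was the member whose mean was not lower in hKO. It held 73.1%, 69.5%, 72.1% and 71.6% in hKO and 68.7%, 69.1%, 73.8% and 74.1% in WT, and the difference of 0.151 points (SE 2.04) had a limma adjusted p of 0.973. In WT cortex 9 of the 35 genes stood above the median gene in mCG and none above the 75th percentile, where 30 of 36 stood above the median in mCA. Over Pdgfra, Cspg4 and Gpr17 mean mCG was 67.9%, 65.8%, 70.1% and 65.1% in hKO and 70.4%, 70.2%, 75.4% and 72.5% in WT. Over the 14 myelin genes it was 70.7%, 68.2%, 74.4% and 70.6% in hKO and 71.7%, 70.6%, 77.4% and 76.0% in WT. In both genotypes the mean of the 3 precursor genes was below that of the 14 myelin genes in every animal, the reverse of the order of their means in mCA. The smallest margin was in WT animal 2, at -0.379 points. Single genes were not ordered in this way: in WT the 3 precursor genes ran from 69.5% to 74.0% and the 14 myelin genes from 63.9% to 80.0%.

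**Figure D5:**
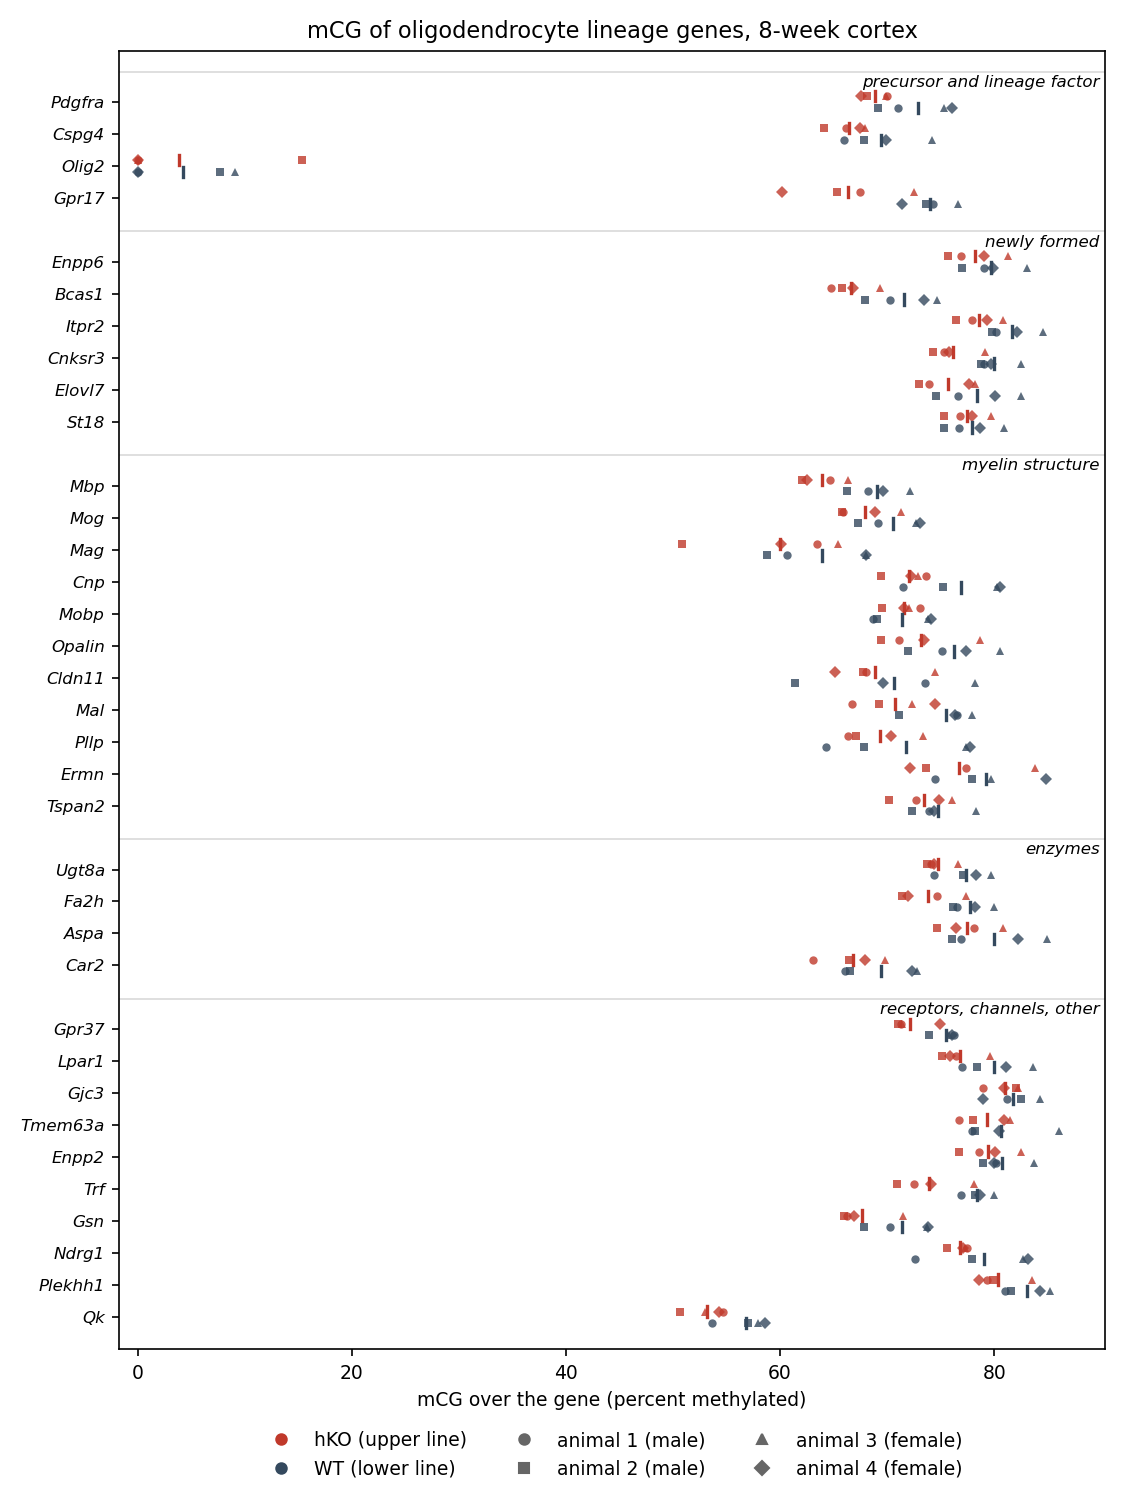
mCG of the 35 lineage genes in each animal, in percent methylated over the gene, grouped by role and drawn as for mCA with hKO on the upper line of each gene. Olig2 lies between 0 and 15.4%, Qk at means of 53.1% in hKO and 56.8% in WT, and in every gene the range of the hKO animals meets or crosses that of the WT animals.

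The falls were present in both sexes. In mCA 35 of the 36 genes had a lower hKO mean in males and 35 in females, the exceptions being Omg in males and Olig2 in females. In males alone 30 members passed limma as lower, where 63.4% of all genes did, and in females alone 27 members did, where 36.8% of all genes did. The median difference was -1.33 points in males and -1.56 points in females. For mCG it was -1.78 points in males, where 29 of the 35 genes were lower, and -3.73 points in females, where all 35 were. Mean mCG over all genes was also lower in hKO in both sexes. In males it was 73.5% and 71.9% in hKO and 75.1% and 74.0% in WT, and in females 76.2% and 74.1% in hKO and 78.9% and 76.7% in WT. Counts of direction and median differences by sex over all genes are not given here, in mCA or mCG. No member had a genotype by sex interaction in mCA (smallest limma adjusted p = 0.486, for Olig2) or in mCG. Such an interaction was called for 0.00939% of all genes in mCA and 0% in mCG. At an unadjusted p under 0.05 limma gave 1 member in each context, against 3.41% of all genes in mCA and 3.07% in mCG. The protocol of the female libraries names a second sequencing instrument as an option, which that of the male libraries does not, so sex and instrument cannot be told apart.

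Of 57 further genes of the lineage and of myelin lipid synthesis, 54 had mCA in all 8 libraries and 42 of these fell, with none higher, against the same background of 72.1%. The median gene of that list kept 56.1% of WT. The hKO mean was lower in 53 of the 54. The exception, Nkx6-2, averaged 4.88% in hKO and 3.235% in WT, with overlapping animals (difference 1.64 points, SE 1.58, limma adjusted p = 0.36). The largest falls were in Cd82 and Cd9, which encode tetraspanins, and in Tcf7l2, a transcription factor of differentiating oligodendrocytes. Cd82 held 3.18%, 3.08%, 3.56% and 3.08% in hKO, against 5.61%, 5.18%, 6.36% and 6.48% in WT. Tcf7l2 held 3.03%, 2.88%, 3.45% and 3.20% in hKO, against 5.37%, 5.17%, 6.16% and 5.30% in WT. Cd9 held 2.84%, 2.63%, 2.92% and 3.25% in hKO, against 4.98%, 4.59%, 5.73% and 4.97% in WT. All 3 were above the most methylated member in WT cortex, and each fell by over 2 points (limma adjusted p = 0.000692 for each). None of the 53 genes with mCG passed limma's adjusted threshold, and 7 had an unadjusted p under 0.05, all lower, where 10.1% of all genes were lower at that threshold. Of the genes marking other cell types of the cortex, 11 of 12 astrocyte genes, 11 of 11 endothelial genes, 8 of 11 microglial genes, 5 of 10 excitatory neuron genes and 6 of 9 inhibitory neuron genes fell, and their median genes kept 55.4%, 54.2%, 52.2%, 60.5% and 58.7% of WT.

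Incomplete bisulfite conversion can add to methylation values. Its level was read from shallow libraries of 7 hKO and 11 WT animals of the same age and tissue, which included 6 of the 8 deeply sequenced animals. Methylation of the unmethylated lambda phage spike was 0.431% (median, range 0.386% to 0.509%) in hKO and 0.543% (0.410% to 0.701%) in WT, and methylation at CC sites 0.244% (0.194% to 0.348%) in hKO and 0.376% (0.263% to 0.460%) in WT. Of the members, Olig2, Omg and Gjc3 had hKO animals below the lambda median pooled over both genotypes, 0.458%. Cnp, at 0.472% in hKO animal 4, lay just above it and below the lambda value of that animal's shallow libraries, 0.509%. With the pooled CC level of 0.344% subtracted from both genotypes, the median share kept by the 34 members without Olig2 and Omg was 48.7%, and that of the 19121 genes with WT mCA above 2 times the CC level was 47.3%. The same level was taken from both genotypes although the CC level was lower in hKO, so both shares depend on that choice. Shares with each genotype's own CC level were not computed.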

How the data were processed

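The members and gene lists were chosen with earlier results of these data known. The authors deposited 1 table with the fraction methylated per gene and animal for CA and CG sites, made with BS-Seeker2 and bedtools on mm9 per the submitters' processing notes, which give no versions. The authors' interval for a gene, its read coverage and any minimum are not given in the sources used here, so the depth behind each value is unknown and no counting interval is given. The 8 pooled columns are the authors' means, and the shallow libraries' deposited values are fractions methylated per library in each context.

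Fractions were multiplied by 100 and tested with limma 3.58.1 in R 4.3.3 (empirical Bayes with a mean-variance trend) over every gene with values in all 8 libraries, 4 hKO against 4 WT, with Benjamini-Hochberg adjustment over all genes and a threshold of 0.05. SE and p come from that fit, and means and SD from the 4 animals. Relative mCA divides each fraction by its library's mean. Sex interactions were fitted with genotype, sex and their product. The p-values weigh each difference against the spread between animals, with each gene's variance moderated toward a trend over all genes. The script was tested on simulated data. The files hold no expression values, so neither the knockout nor the tissue label was checked against a gene's level. All 37 genes are named. Values per animal are given for precursor genes, for Mbp, Mog, Mag, Cnp, Mobp, Opalin, Ugt8a and Fa2h, for members that did not pass, and for the 3 largest falls among the other lineage genes. Those given for mCG were chosen after the values were seen. Cers2 and Hmgcs1 are not analysed here. Ptgds had no mCG value. Promoters are RefSeq's, and overlaps between genes come from RefSeq names on GRCm38.p6.

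Alternatives were the logit of the fraction (0.001 added), sex as a covariate, the replicate number as a block, each sex alone, each animal left out, library medians subtracted, the lowest 25% of genes left out and, for relative mCA, the library median or log2 (0.05 added). A block held an hKO and a WT animal of the same sex whose titles carry the same or adjacent numbers. The main test did not pair them.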

Additional observations from a re-analysis of the deposited data

Results flagged for a closer look

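Single animals that stood far from the other three of their genotype were found in 10 of 142 gene and genotype groups. The rule's rate of about 1 in 20 assumes independent groups without ties. Here the groups share the same libraries, and a gene listed at 0 in the remaining animals is flagged at any other value. The count can therefore not be set against that rate. In mCA, Itpr2 was 2.78% in hKO animal 3, with the others between 2.36% and 2.38%, and Mbp was 2.10% in hKO animal 3, with the others between 1.61% and 1.62%. Elovl7 was 3.995% in WT animal 3, with the others between 3.04% and 3.07%. The other mCA values were in genes listed at 0 in the remaining animals: Olig2 at 0.962% in WT animal 2, Omg at 1.79% in hKO animal 1 and Omg at 2.33% in WT animal 3. In mCG, Olig2 was 15.4% in hKO animal 2 with 0 in the other three. Gpr37 was 74.9% in hKO animal 4, with the others between 71.0% and 71.4%, and 73.9% in WT animal 2, below 75.8% to 76.2% in the others. Gsn was 71.5% in hKO animal 3, with the others between 66.0% and 66.9%.

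Mobp mCG moved in opposite directions in the sexes. Both hKO males were above both WT males and both hKO females below both WT females, and the genotype difference in males exceeded that in females by 4.53 percentage points. The limma interaction had an unadjusted p of 0.17 and an adjusted p of 1.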

How the results depend on the processing

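The number of members that fell in mCA stayed within 1.5 times of 33 in the alternatives run: it was 34 with the replicate block, 30 in males, 27 in females, 32 of the 33 tested without the lowest 25% of genes, 33 with the logit or sex as covariate and 32 to 34 with an animal left out. Over all genes the count was 15369 of 21302. In those settings it was 16635, 13500, 7841, 14460 of the 15976 genes tested without the lowest 25%, 15210 (logit), 15383 (sex) and 13543 to 16024. With library medians subtracted, which takes the same amount from every gene of a library, 23 were lower, as were 5283 of all genes, and 2 higher (Cnp and Gjc3). The count of members higher was otherwise 0, except 1 (Olig2) in females and 0 to 1 with an animal left out. The replicate block added Gjc3 (limma adjusted p = 0.00987) and lost no call. Same-numbered animals had deviations correlated at 0.037 to 0.114 in mCA and 0.0389 to 0.120 in mCG over 4 pairs. Animals of different numbers ran from -0.092 to 0.0793 in mCA and from -0.0968 to 0.0647 in mCG over 12 pairs. The same-numbered values were not all above the 0.1 set for pairing. In mCA hKO animal 1 correlated more with WT animal 2 (0.0793) than with its own number (0.0386).

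Some differences changed direction and are given in percentage points. In mCA males alone gave Olig2 -0.481 and Omg 0.893, and subtracted medians gave Mog 0.139, Cnp 0.417, Omg 0.776, Aspa 0.141, Gjc3 0.554 and Qk 0.0494. With an animal left out Omg ran from -0.581 to 0.446. In mCG males alone gave Olig2 3.85, St18 0.0182, Cldn11 0.441, Pllp 0.678 and Ndrg1 1.27, and females Mobp -2.11. Subtracted medians gave Olig2 1.93, Enpp6 0.770, St18 1.81, Cldn11 0.466, Tspan2 0.966, Gjc3 1.62, Tmem63a 0.940, Enpp2 1.00 and Ndrg1 0.0345. With an animal left out mCG differences ran from -4.2 to 1.28 for Olig2, from -1.33 to 0.519 for St18, from -0.756 to 1.04 for Mobp, from -4.91 to 0.687 for Cldn11, from -1.59 to 0.189 for Gjc3 and from -2.25 to 0.446 for Tmem63a. The cause was not tested. The mean difference of precursor minus myelin genes in mCG over all 8 animals, -19.2 points, was -2.78 without Olig2 and Omg and -5.14 with medians over the genes, since Olig2 is close to 0. In mCA it was 0.441 points and 0.802 without Olig2 and Omg. Leaving out Olig2 and Omg, medians over genes, relative mCG and the alternatives for the precursor and myelin means were chosen after seeing the data. In mCG and relative mCA no member was called under any alternative. Depth is unknown, so a difference in genes listed at 0 could not be judged.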
